A study of Mus musculus with 6 samples.

Results

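Interferon-stimulated genes, which cells switch on when interferons signal infection or inflammation, were followed in whole lung of mice that express a dominant-negative BMP receptor in smooth muscle. They were 39 genes, and a probe set of the array was taken where its only platform gene symbol was one of them. This gave 58 probe sets for 37 genes, of 45037 probe sets in all. Isg15 and Ifi44 had no probe set of their own. A gene with several probe sets stands at its brightest one unless another is named, and 47 probe sets, standing for 34 of the genes, were bright enough to test. The expression array was run on 6 samples, each a pool of 3 mice (18 mice), and each of the 3 groups held 1 female and 1 male pool. The first group was SM22-dnBMPR2 inducible transgenic mice with the transgene activated for 8 weeks, and the second carried it activated for 1 week. The third group was the control, which served both durations. SM22 is a smooth muscle gene, so its promoter limits the transgene mainly to smooth muscle, while RNA came from every cell of the lung. The series description names mice with the transactivator alone as the controls, and gives raised right ventricular pressure for the other mice. The male control pool was labelled SM22-rtTA only and the female control pool only by the FVB/N strain. Neither control label gave an activation time or an inducer, and no label gave an age. Any effect of these or of how the lungs were handled cannot be told apart from that of the transgene.

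Type I interferons signal through a receptor pair and the kinases JAK1 and TYK2 to a complex that includes STAT2 and IRF9, which binds interferon-stimulated response elements in promoters. Interferon gamma acts through its own receptor and gamma-activated sites, and strongly induces the GTPases and the antigen-processing genes. In the lung these programmes act against viruses and against bacteria or parasites inside cells.

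Promoter sequence is shown for genes whose levels are described below, since the letters of both kinds of element can be read in it. The 250 bases before the start site were read from RefSeq (build GRCm38.p6), which held 30 of the 39 genes. The response element was searched as GAAA, any 2 bases and GAAA again, and the gamma-activated site as TTCNNNGAA, on both strands. Matches may overlap, and each base of a match is in capitals. The paired GAAA motif occurred in 14 of the 30 promoters (46.7%), against 936 of 27025 promoters in the table (3.46%). TTCNNNGAA occurred in 7 of 30 (23.3%), against 2197 of 27025 (8.13%). Both occurred in Bst2, Igtp, Irgm2 and Oas1a (13.3%), against 124 promoters in the table (0.459%). These are letter matches in the reference strain, not sites shown to be bound in these lungs. The GTPase genes Igtp and Irgm2, neighbours on chromosome 11, carried both motifs in the same order, TTCNNNGAA starting 45 and the paired GAAA motif 34 bases before the start of Igtp, and 75 and 64 bases before that of Irgm2. The longest run of letters their promoters shared was 55 bases, and 92 of 100 bases around the motif pair were the same. They are written 5′ to 3′ on the strand of the gene, with 250 bases for this pair and 60 bases around the paired GAAA matches for the other genes. The TTCNNNGAA match of Oas1a starts 98 bases before its start site and lies outside the stretch shown.
Igtp (chr11:58199306-58199555, plus strand): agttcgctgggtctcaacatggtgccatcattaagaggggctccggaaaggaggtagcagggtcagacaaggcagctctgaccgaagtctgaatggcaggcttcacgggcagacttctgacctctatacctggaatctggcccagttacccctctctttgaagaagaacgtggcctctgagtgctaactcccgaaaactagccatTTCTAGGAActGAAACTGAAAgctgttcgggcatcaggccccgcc
Irgm2 (chr11:58214727-58214976, plus strand): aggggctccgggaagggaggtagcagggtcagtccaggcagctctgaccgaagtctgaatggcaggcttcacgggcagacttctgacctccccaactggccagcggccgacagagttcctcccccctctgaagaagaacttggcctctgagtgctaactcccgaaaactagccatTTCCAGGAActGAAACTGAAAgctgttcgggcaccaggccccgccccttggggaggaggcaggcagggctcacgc
Gbp2 (chr3:142620579-142620638, plus strand): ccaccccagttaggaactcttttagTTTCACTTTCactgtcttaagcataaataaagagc
Irgm1 (chr11:48871421-48871480, minus strand): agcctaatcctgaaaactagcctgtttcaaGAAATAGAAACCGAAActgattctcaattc
Oas1a (chr5:120907526-120907585, minus strand): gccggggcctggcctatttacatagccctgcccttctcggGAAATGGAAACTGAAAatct
Ifit1 (chr19:34640769-34640828, plus strand): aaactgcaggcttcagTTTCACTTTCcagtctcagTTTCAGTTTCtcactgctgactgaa
Bst2 (chr8:71537565-71537624, minus strand): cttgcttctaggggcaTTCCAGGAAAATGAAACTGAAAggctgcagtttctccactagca
Rsad2 (chr12:26456538-26456597, minus strand): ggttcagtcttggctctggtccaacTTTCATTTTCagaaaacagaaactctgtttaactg
Isg15 (chr4:156200856-156200915, minus strand): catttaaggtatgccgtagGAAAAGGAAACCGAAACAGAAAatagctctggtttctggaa

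Median deposited intensity lay between 50.49 and 63.41 on the 6 arrays. The lung epithelium marker Scgb1a1 measured 13.36 in all 6 pools, at the top of the normalized scale, so it shows that airway tissue was present and allows no comparison. The correlation between pools over all probe sets was 0.905 to 0.980. Precision was limited by the number of arrays, 2 for each group. The p-values of the group and sex comparisons rest on how far the female minus male difference varied over the 3 groups, since no group held 2 pools of 1 sex. In limma this spread was drawn toward that of all probe sets tested. Whether the Bmpr2 probe sets also read the transgene is not given in the sources used here. Bmpr2 was 0.26 lower on the log2 scale at 8 weeks than in controls at its brightest probe set (limma, adjusted p = 0.327). A second probe set was 0.93 lower (limma, adjusted p = 0.108), with changes of -0.94 in females and -0.92 in males, and another differed by 0.0096. Levels below are log2 intensity after normalization, given for the female pool and then the male pool of a group, and changes are differences on that scale. A change passed at an adjusted p below 0.05 over all 27022 probe sets bright enough to test.

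No interferon-stimulated gene passed at either duration. At 8 weeks against control, 0 of their 47 probe sets passed, against 161 of 27022 (0.596%) over the array (limma). The count at an unadjusted p under 0.05 was 7 of 47 at 8 weeks (23% of all probe sets). At 1 week, 0 of 47 passed and 0% of all probe sets did, with 2 of 47 at an unadjusted p under 0.05 (5.5% of all). Moderation with a variance trend and robust settings called 4 of the 47 probe sets at 8 weeks, where it called 1916 over the array, and 0 at 1 week. Plain least squares called 0 at both. The median change of the 34 genes at 8 weeks was 0.03, and the same over all probe sets was 0.03. At 1 week the median was 0.07, against 0.0043 over all probe sets. At 8 weeks 30 of 34 genes lay within 0.5 of no change (1.41-fold), against 77.6% of all probe sets, and at 1 week 32 of 34, against 93.0%. All but the outermost 5% of probe sets lay between -1.25 and 0.85 at 8 weeks and between -0.58 and 0.55 at 1 week. Oas1a lay above that range at both durations and Rsad2 at 1 week, and the other genes lay inside it, as the histogram of all changes shows.

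**Figure D1:**
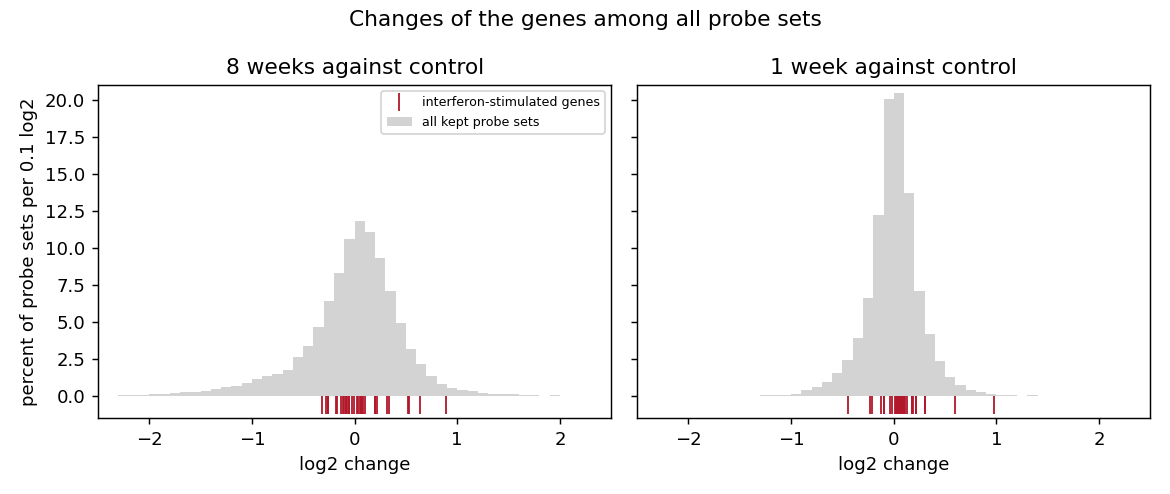
Histograms of log2 change over all probe sets bright enough to test (grey, percent per 0.1 log2) for 8 weeks against control and 1 week against control, with 1 red tick for each of the 34 interferon-stimulated genes. The ticks lie between -0.32 and 0.89 at 8 weeks and between -0.44 and 0.97 at 1 week.

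**Figure D2:**
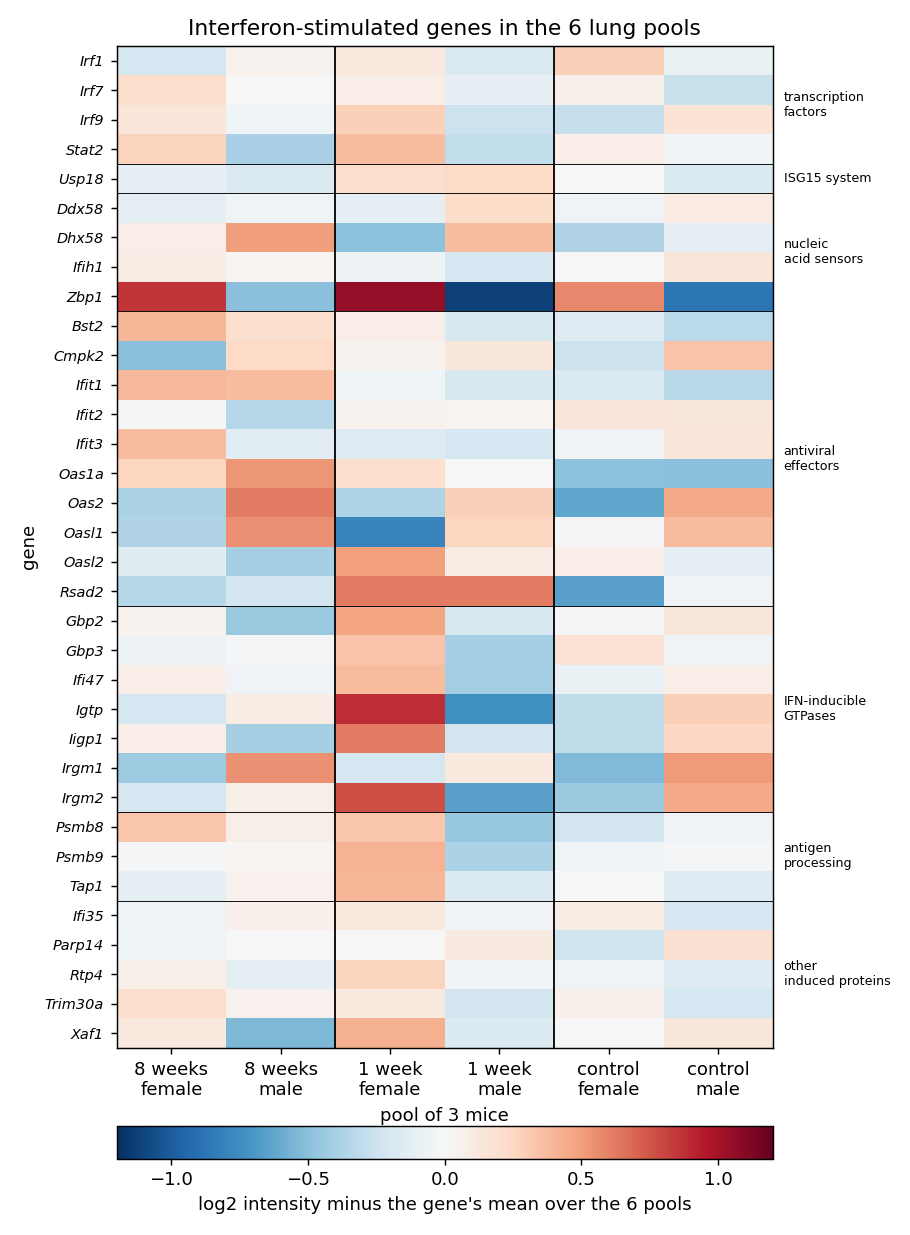
Log2 intensity of the 34 genes in the 6 pools, each gene relative to its own mean, with genes ordered by role. Few rows separate the groups in both sexes, and the GTPase rows other than Irgm1 are high in the 1 week female pool and low in the 1 week male pool.

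The antiviral effectors, which act on viral RNA, assembly or release, held the largest positive changes at 8 weeks, and none of them passed. Oas1a, an oligoadenylate synthetase whose product activates the RNA-cutting enzyme RNase L, measured 7.56 and 7.83 at 8 weeks, 7.51 and 7.30 at 1 week, and 6.81 and 6.80 in controls. All 4 transgenic pools lay above both control pools. The 8 week difference was 0.89 ± 0.17 (SE), or 1.85-fold (limma, adjusted p = 0.0912). Ifit1, which binds viral RNA that lacks the cell's own cap marks, measured 8.28 and 8.26 at 8 weeks, 7.84 and 7.70 at 1 week, and 7.71 and 7.56 in controls. Both 8 week pools lay above the other 4, and the difference from control was 0.64 ± 0.13, or 1.55-fold (limma, adjusted p = 0.101). Bst2, the tetherin that holds budding viruses at the cell surface, measured 9.12 and 8.91 at 8 weeks, 8.80 and 8.53 at 1 week, and 8.57 and 8.40 in controls. It was 0.53 ± 0.13 above control at 8 weeks with no overlap (limma, adjusted p = 0.122).

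Other effectors stood the other way or did not differ in order. Ifit2, a relative of Ifit1, measured 8.65 and 8.32 at 8 weeks, 8.70 and 8.70 at 1 week, and 8.80 and 8.80 in controls. The 8 week pools were both below the controls, by 0.32 ± 0.15 on average (limma, adjusted p = 0.292). Ifit3, its neighbour on chromosome 19, measured 9.55 and 9.05 at 8 weeks, 9.02 and 8.98 at 1 week, and 9.14 and 9.32 in controls, so the 8 week pools lay on both sides of the controls. Oasl2, an oligoadenylate synthetase relative, measured 8.06 and 7.80 at 8 weeks, 8.69 and 8.30 at 1 week, and 8.28 and 8.10 in controls. It was lowest at 8 weeks and highest at 1 week within each sex. Of the 10 effectors bright enough to test, 4 were higher in both sexes at 8 weeks, against 36.5% of all probe sets, and 3 were lower, against 29.0%.

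The ISG15 system attaches the small protein ISG15 to other proteins, and Usp18 removes it and damps the receptor. The 1 probe set with Isg15 in its annotation also listed the predicted gene Gm9706, so its signal cannot be given to Isg15 alone. It measured 7.98 and 8.39 at 8 weeks, 7.58 and 7.57 at 1 week, and 7.33 and 7.44 in controls. Its groups did not overlap, and the 8 week difference was 0.81 (limma, adjusted p = 0.0957). Usp18 measured 7.62 and 7.55 at 8 weeks, 7.93 and 7.95 at 1 week, and 7.71 and 7.56 in controls. Its 2 values at 1 week were the highest of the 6, and its difference at 8 weeks was -0.05 ± 0.13 (limma, adjusted p = 0.846).

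Among the sensors of foreign nucleic acid, Dhx58, a helicase that tunes RIG-I and MDA5 signalling, measured 5.92 and 6.34 at 8 weeks, 5.35 and 6.21 at 1 week, and 5.48 and 5.73 in controls. The 8 week pools lay above both controls, by 0.52 ± 0.19 (limma, adjusted p = 0.205). A second probe set of Dhx58 gave 0.60 ± 0.13 at 8 weeks (limma, adjusted p = 0.107). Ddx58, which encodes RIG-I, and Ifih1, which encodes MDA5, differed from control at 8 weeks by -0.11 ± 0.14 and -0.02 ± 0.14. A second probe set of Ddx58 gave 0.21 ± 0.16 at 8 weeks (limma, adjusted p = 0.459). It measured 7.21 and 7.59 at 8 weeks, against 7.19 and 7.18 in controls. Zbp1, a sensor of Z-form nucleic acid that can trigger cell death, was 0.32 ± 0.24 above control at 8 weeks (limma, adjusted p = 0.472). At this probe set its female and male pools differed more than its groups, as described below. A second probe set of Zbp1 gave 0.65 ± 0.22 at 8 weeks, with both 8 week pools above all other pools (limma, adjusted p = 0.190).

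The transcription factors that carry or amplify the signal had no shared direction. Irf7, the factor that amplifies type I interferon production, measured 7.75 and 7.54 at 8 weeks, 7.62 and 7.44 at 1 week, and 7.59 and 7.27 in controls. It was higher at 8 weeks within each sex, by 0.22 ± 0.13 on average, and the groups overlapped (limma, adjusted p = 0.383). Irf1, an interferon gamma-induced factor, measured 10.67 and 10.92 at 8 weeks, 11.00 and 10.71 at 1 week, and 11.16 and 10.80 in controls. The 8 week female pool was the lowest and the control female pool the highest. Irf9 measured 8.07 and 7.87 at 8 weeks, 8.21 and 7.67 at 1 week, and 7.65 and 8.09 in controls. Stat2 measured 6.51 and 5.86 at 8 weeks, 6.62 and 5.95 at 1 week, and 6.32 and 6.22 in controls. For both of these partners, the female pools of the transgenic groups lay above the female control and the male pools below the male control.

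In all, 6 of 34 genes had both 8 week pools above both controls, against 23% of all probe sets: Bst2, Dhx58, Ifit1, Oas1a and the immunoproteasome subunits Psmb8 and Psmb9. Ddx58, Ifit2 and Oasl2 lay below without overlap, 3 of 34, against 18.8%. Both shares, 17.6% and 8.82%, count each gene at its brightest probe set, while the array shares count every probe set tested. Counted over the genes' 47 probe sets, 11 lay above and 4 below without overlap. At the second Ddx58 probe set both 8 week pools lay above both controls instead. In bulk lung, fewer cells of a type and less RNA per cell cannot be told apart. Markers of myeloid cells stood higher at 8 weeks. The summed intensity of 10 macrophage and monocyte markers was 9289 and 7649 at 8 weeks, against 3157 and 3629 in controls. Of these 10 genes 8 were higher in both sexes, 0 passed and 8 had an unadjusted p under 0.05 (limma). The sum of 10 neutrophil markers was 10240 and 11600 at 8 weeks, against 4213 and 3885 in controls, and 3 of them rose (Clec4d, Mmp8 and Mmp9, limma, adjusted p 0.0470 to 0.0480). The sum of 7 markers of plasmacytoid dendritic cells, the main makers of type I interferon, was 2130 and 2125 at 8 weeks, against 2510 and 2149 in controls. Of these 7 genes 4 were higher and 2 lower in both sexes at 8 weeks, with a median change of 0.56. Of these Ccr9 rose (limma, adjusted p = 0.0470), and 5 of the 7 had an unadjusted p under 0.05. The other probe sets of Ccr9 were too dim to test. Siglech was at 0.96, Ly6d at 0.98, Pacsin1 at 0.56 and Cox6a2 at -1.18 (limma, adjusted p 0.0950 to 0.167). Tcf4, the brightest of the 7 and the other lower one, was at -0.34 (limma, adjusted p = 0.299). Cardiac muscle markers summed to 2266 and 5136 at 8 weeks, against 10110 and 9898 in controls. Of these 8 markers 7 were lower in both sexes, as was Cox6a2, at -1.60 in females and -0.75 in males. No list had a marker at the floor on all pools, and the part of these cells in the values above was not tested.

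**Figure D3:**
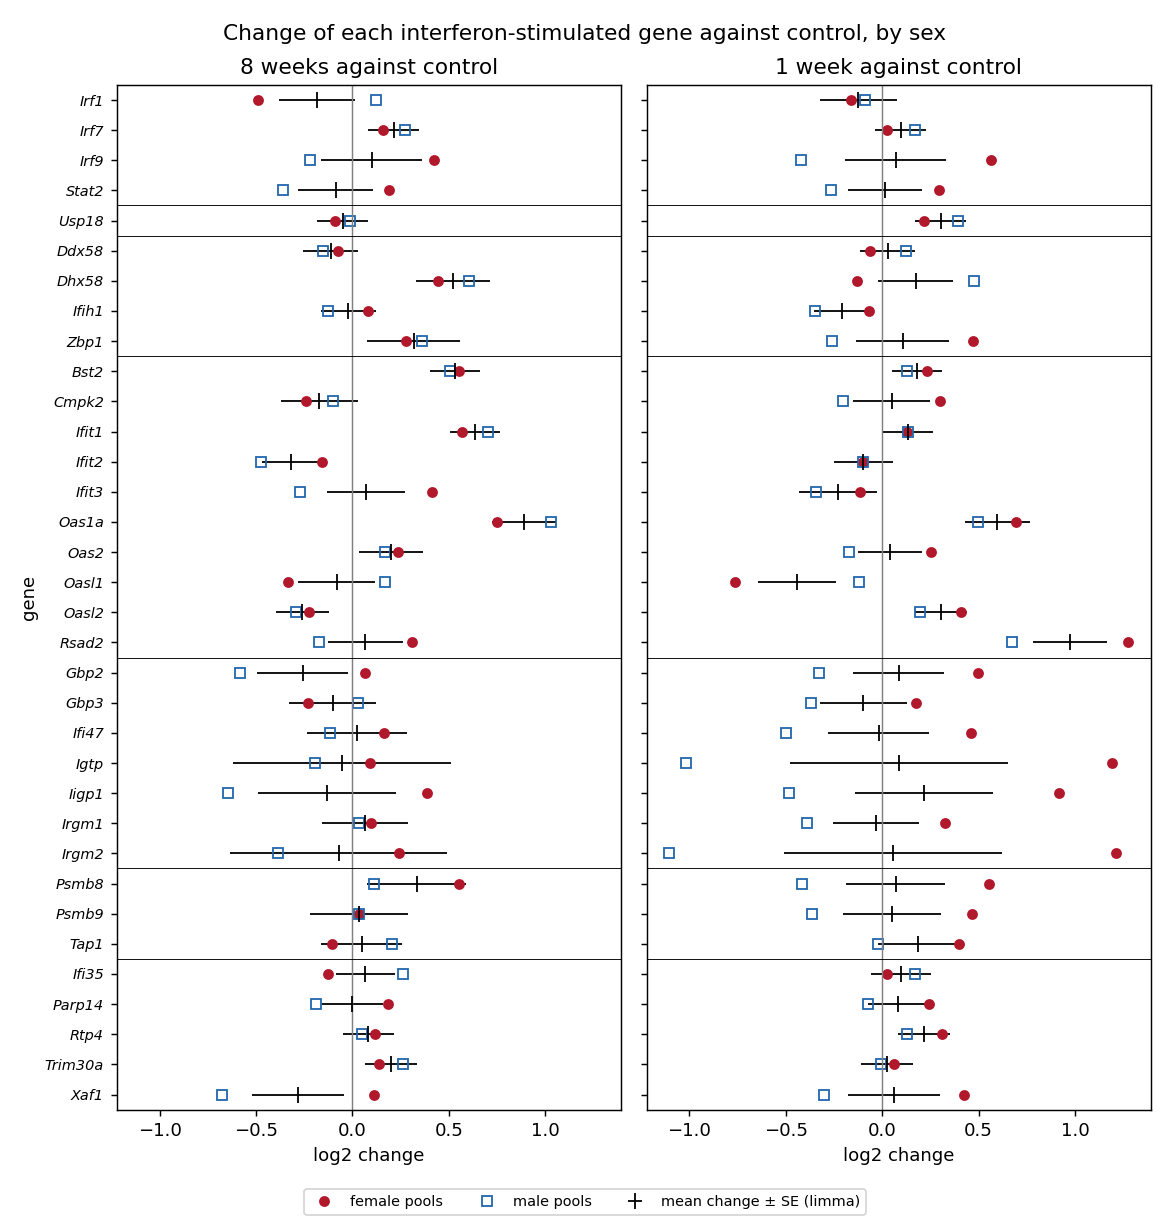
Log2 change of each of the 34 genes against control at 8 weeks and at 1 week, in the female pools (red circles) and male pools (blue squares), with the limma mean and SE (black). At 8 weeks Oas1a, Ifit1, Bst2 and Dhx58 sit right of 0 in both sexes, and at 1 week the GTPases and antigen-processing genes lie right of 0 in females and left of it in males.

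At 1 week against control, Rsad2 had the largest change. Rsad2 encodes viperin, which makes a chain-ending nucleotide that stops viral RNA synthesis, and measured 7.67 and 7.79 at 8 weeks, 8.63 and 8.63 at 1 week, and 7.36 and 7.96 in controls. Both 1 week pools lay above the other 4. The difference was 0.97 ± 0.19, or 1.96-fold, at 1 week against control, and it did not pass (limma, adjusted p = 0.894). The adjusted p-values of this comparison were all 0.57 or more over the array. The other 2 probe sets of Rsad2 gave 0.59 ± 0.42 and 0.62 ± 0.29 at 1 week, and the 1 week pools overlapped the controls in the first and not in the second. Cmpk2, a nucleotide kinase whose gene lies beside Rsad2 on chromosome 12 with 0 protein-coding genes between, differed from control by 0.05 ± 0.20 at 1 week (limma, adjusted p = 0.998).

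The further genes named at 1 week were smaller in change. Oas1a differed from control by 0.60 ± 0.17 (limma, adjusted p = 0.894), and its 1 week pools lay above the controls as given above. Oasl2 and Usp18 each differed by 0.30, with SE 0.14 and 0.13. Oasl1, which in mice represses production of the Irf7 protein, measured 4.96 and 5.86 at 8 weeks, 4.53 and 5.57 at 1 week, and 5.29 and 5.69 in controls. It was 0.44 ± 0.20 below control at 1 week, with overlapping pools (limma, adjusted p = 0.912). The 5 genes with both 1 week pools above both controls were Oas1a, Oasl2, Rsad2, Rtp4 and Usp18, against 12.5% of all probe sets. Ifih1, Ifit2 and Ifit3 lay below, 3 of 34, against 11.1%.

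The interferon-inducible GTPases attack the vacuoles in which bacteria and parasites live, and their female and male pools stood apart at 1 week. This pattern was noticed after their values were seen. Irgm2, which guards host membranes from the other GTPases, measured 8.54 and 8.81 at 8 weeks, 9.51 and 8.10 at 1 week, and 8.30 and 9.20 in controls. Igtp, its neighbour gene, measured 8.97 and 9.27 at 8 weeks, 10.07 and 8.44 at 1 week, and 8.88 and 9.46 in controls. In both genes the 1 week female pool was the highest of all 6 and the 1 week male pool the lowest. Iigp1, an effector of the same family, measured 9.09 and 8.61 at 8 weeks, 9.62 and 8.78 at 1 week, and 8.70 and 9.26 in controls. Ifi47 measured 10.05 and 9.93 at 8 weeks, 10.35 and 9.55 at 1 week, and 9.89 and 10.05 in controls. The 1 week female pool was the highest in these as well. At a second Iigp1 probe set the 8 week male pool was the highest, at 7.52, and the 1 week female pool was at 7.46.

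The guanylate-binding proteins, the larger GTPases of the response, had the same order at 1 week. Gbp2 measured 9.75 and 9.26 at 8 weeks, 10.18 and 9.52 at 1 week, and 9.68 and 9.85 in controls. Gbp3 measured 8.84 and 8.88 at 8 weeks, 9.24 and 8.49 at 1 week, and 9.07 and 8.86 in controls. Irgm1 was the exception, with the male pool above the female pool in every group: 8.07 and 9.05 at 8 weeks, 8.29 and 8.62 at 1 week, and 7.97 and 9.02 in controls. The median female minus male difference over the 7 GTPases was -0.05 at 8 weeks, 0.80 at 1 week and -0.56 in controls. The control pools thus stood in the reverse order, male above female in 6 of 7 genes. These pools also differed in label, FVB/N for the female and SM22-rtTA only for the male. In controls, sex and label cannot be told apart.

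The genes that cut and carry peptides for display to T cells had the same order of pools at 1 week. Psmb8, an immunoproteasome subunit, measured 9.86 and 9.59 at 8 weeks, 9.86 and 9.07 at 1 week, and 9.30 and 9.48 in controls. Psmb9, its partner subunit, measured 9.68 and 9.72 at 8 weeks, 10.11 and 9.32 at 1 week, and 9.65 and 9.68 in controls. Tap1, the peptide transporter, measured 8.09 and 8.25 at 8 weeks, 8.60 and 8.03 at 1 week, and 8.20 and 8.05 in controls. All 3 were highest in the 1 week female pool, with Psmb8 tied at 8 weeks, and lowest in the 1 week male pool. The 3 genes lie next to each other on chromosome 17 with 0 other protein-coding genes between.

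Over the 34 genes, 16 (47.1%) were highest in the 1 week female pool, against 13% of all probe sets, and 11 (32.4%) were lowest in the 1 week male pool, against 10.7%. The other pools were the highest in 6 genes (8 weeks female, 20.4% of all probe sets), 5 (8 weeks male, 24.3%), 3 (1 week male, 12%), 2 (control female, 16.3%) and 3 (control male, 14.1%). They were the lowest in 3 (8 weeks female, 18.5%), 7 (8 weeks male, 21.2%), 2 (1 week female, 14.7%), 5 (control female, 19.2%) and 6 (control male, 16.1%). The female pool lay above the male pool by more than 0.5 in 13 of 34 genes at 1 week (38.2%), against 11.9% of all probe sets. The same count was 3 of 34 at 8 weeks, against 15%, and 1 of 34 in controls, against 12.5%. Counted over the genes' 47 probe sets, the unit of the array shares, it was 18 at 1 week, 9 at 8 weeks and 3 in controls. Against the control of its own sex, the 1 week female pool was higher by more than 0.5 in 7 of 34 genes (6.52% of all probe sets). The 1 week male pool was lower by more than 0.5 in Igtp and Irgm2 (6.28% of all probe sets). At 1 week each sex was 1 pool, so these differences have no replicate check. The antiviral effectors bright enough to test did not share the order. Of these, 1 of 10 was highest in the 1 week female pool and 0 differed there by more than 0.5 toward the female. Among the effectors too dim to test, Mx1 and Oas3 were highest in the 1 week female pool and Mx2 in the 1 week male pool.

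A model with transgene, sex and their interaction, in which both durations count together, called 0 of 47 probe sets and 0% of all (limma), and also 0 with trend and robust moderation or with least squares. Its spread is the difference between the 1 week and 8 week pools of a sex. A split at 1 week alone adds to that spread, so the model cannot decide on such a split. The interaction at an unadjusted p under 0.05 held for 1 of the 47, Iigp1, at 1.22 ± 0.42 (limma, adjusted p = 1), against 2.35% of all probe sets. A second Iigp1 probe set gave 0.83 ± 0.52. The estimate was 1.47 ± 0.75 for Irgm2 and 1.25 ± 0.84 for Igtp. The female and male controls also differed in label, which this interaction cannot tell apart from sex. Summed natural killer cell markers, from cells that make interferon gamma, were 2351 and 1797 at 8 weeks, 2833 and 1625 at 1 week, and 2002 and 1387 in controls. Of 7 such markers, 5 were higher in the female pool of every group, 0 passed for sex and 4 had an unadjusted p under 0.05 (limma). Summed macrophage and monocyte markers were 4624 and 3084 at 1 week. T cell markers summed to 761.1 and 711.7 at 1 week, against 1165 and 793 in controls. The part of these cells in the 1 week split was not tested.

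**Figure D4:**
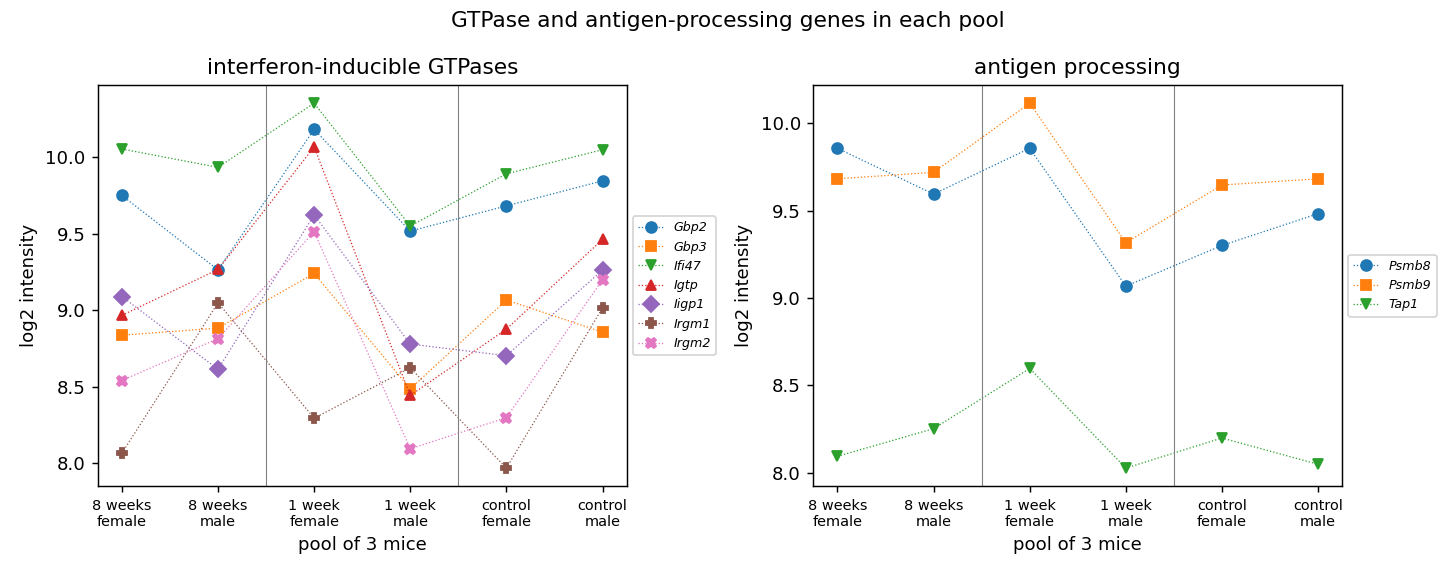
Log2 intensity of the 7 interferon-inducible GTPases and the 3 antigen-processing genes in each of the 6 pools, with dotted lines joining 1 gene's values for reading only. In 6 of 7 GTPases and all 3 antigen-processing genes the 1 week female pool is the highest, with Psmb8 as high in the 8 week female pool.

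At 8 weeks against 1 week, 0 of 47 probe sets passed (0% of all), 7 of 47 had an unadjusted p under 0.05 (18.5% of all), and 2 were called with trend and robust moderation (752 over the array) and 0 with least squares (limma). Rsad2 was 0.91 ± 0.19 lower at 8 weeks (limma, adjusted p = 0.146) and Oasl2 0.56 ± 0.14 lower (adjusted p = 0.165). The dimmer probe sets of Rsad2 gave smaller differences, 0.05 ± 0.42 and -0.31 ± 0.29. Ifit1 was 0.50 ± 0.13 higher at 8 weeks (limma, adjusted p = 0.179). Bst2, Ifih1, Ifit1, Ifit3 and Oas1a lay above the 1 week pools without overlap, 5 of 34, against 20.7% of all probe sets. Ifit2, Oasl2, Parp14, Rsad2 and Usp18 lay below, also 5 of 34, against 17.7%. The 3 group comparisons share pools, so they are not separate evidence for a gene.

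Female against male, with group in the model, called 3 of 47 probe sets, against 8.3% of all probe sets (limma). At an unadjusted p under 0.05 the count was 10 of 47, against 29.7%. Zbp1 measured 8.35 and 6.99 at 8 weeks, 8.54 and 6.37 at 1 week, and 8.07 and 6.63 in controls. All 3 female pools lay above all 3 male pools, by 1.66 ± 0.20, or 3.16-fold (limma, adjusted p = 0.0223). Without either control pool or either 1 week pool the adjusted p was 0.0928 to 0.126. Oas2, an oligoadenylate synthetase, measured 6.32 and 7.33 at 8 weeks, 6.34 and 6.99 at 1 week, and 6.08 and 7.16 in controls. Here the male pools were the higher in every group, and females were lower by 0.91 on average (log2 difference -0.91 ± 0.13, limma, adjusted p = 0.0312). Leaving out any 1 of the 6 pools ended that call, with adjusted p between 0.0656 and 0.149. The third was a dimmer probe set of Xaf1, a partner of the apoptosis inhibitor XIAP, with 6.88 and 5.75 at 8 weeks, 7.14 and 5.45 at 1 week, and 6.51 and 5.59 in controls. Its females were higher by 1.24 ± 0.18 (limma, adjusted p = 0.0312), and leaving out any 1 pool ended this call too. Irgm1 differed by -0.79 ± 0.18 and Oasl1 by -0.78 ± 0.16, female minus male, and neither passed (limma, adjusted p = 0.0685 and 0.0572). Over the 34 genes, 9 were higher in the female pool of all 3 groups (24.9% of all probe sets) and 8 higher in the male pool (28.4%).

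Probe sets of 1 gene did not always give the same picture. The second Zbp1 probe set measured 6.82 and 7.27 at 8 weeks, 6.72 and 6.36 at 1 week, and 6.38 and 6.42 in controls. Its female minus male difference was -0.04 ± 0.18 (limma, adjusted p = 0.902), against 1.66 at the brighter one. The brightest Xaf1 probe set measured 8.85 and 8.19 at 8 weeks, 9.16 and 8.56 at 1 week, and 8.73 and 8.87 in controls, a sex difference of 0.37 ± 0.19 (limma, adjusted p = 0.27). The 2 Dhx58 probe sets had sex differences of opposite sign, -0.51 ± 0.16 at the brighter and 0.53 ± 0.11 at the dimmer (limma, adjusted p = 0.115 and 0.0529). Trim30a, a restrainer of inflammatory signalling in mice, measured 9.23 and 9.09 at 8 weeks, 9.15 and 8.82 at 1 week, and 9.09 and 8.82 in controls at its brightest probe set. Its second probe set measured 7.34 and 7.70 at 8 weeks, 8.31 and 8.70 at 1 week, and 8.75 and 8.62 in controls. The 8 week difference was 0.20 ± 0.13 at the first and -1.16 ± 0.18 at the second (limma, adjusted p = 0.418 and 0.074). The second was the largest 8 week change among the 47 probe sets, and the files do not say which transcripts each probe set reads.

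**Figure D5:**
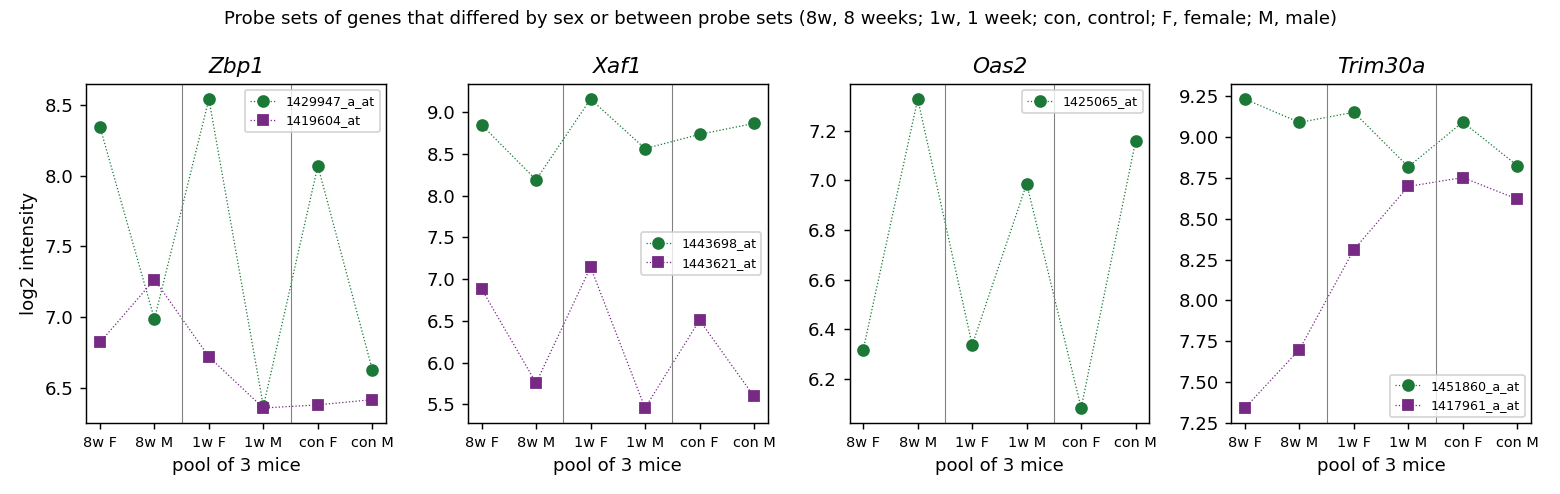
Log2 intensity in each pool for the probe sets of Zbp1, Xaf1, Oas2 and Trim30a, the brightest in green and another in purple. At Zbp1 the green probe set separates female from male pools and the purple one does not, and at Trim30a only the purple one lies lower in both 8 week pools.

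Of the genes too dim to test, Mx2, an antiviral GTPase, measured 5.41 at 8 weeks, 6.14 at 1 week and 5.93 in controls in male pools. The female pools were at 4.18 at 1 week, 4.14 in controls and the floor of 3.95 at 8 weeks. Mx1, a related GTPase, measured 4.23 and 4.75 at 8 weeks, 4.95 and 4.26 at 1 week, and 4.53 and 4.89 in controls. Oas3 was at the floor in the male pools of the 1 week and control groups.

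Other genes of the interferon pathway were described from a list of 46, of which 35 were measured and 26 bright enough to test. Their median change at 8 weeks was 0.09, against 0.03 over all probe sets, and 0 passed at either duration, with 4 of 26 at 8 weeks (23% of all probe sets) and 0 at 1 week (5.5%) at an unadjusted p under 0.05 (limma). None of the 8 measured ligands was bright enough to test. Ifng measured 4.89 and 4.52 at 8 weeks, 4.09 and 4.01 at 1 week, and the floor of 3.95 and 4.09 in controls. All 6 receptors were tested and their median change was 0.0019 at 8 weeks. The largest values with 1 sign in both sexes at 8 weeks were Ptpn6, a phosphatase that damps cytokine signalling, at 0.83 ± 0.14, and Ticam1, an adaptor of Toll-like receptors, at 0.74 ± 0.19 (limma, adjusted p = 0.0761 and 0.129). Irf5, a factor of inflammatory gene induction in macrophages, was at 0.73 ± 0.14, Socs1, the feedback inhibitor, at -0.54 ± 0.27, and Myd88, another Toll-like receptor adaptor, at 0.39 ± 0.13 (limma, adjusted p = 0.0912, 0.298 and 0.179). At 1 week the same rule gave Tlr9 at 0.32, Ticam1 at 0.24, Tbk1 at -0.23, Ifnlr1 at -0.21 and Pias1 at -0.21 (limma, adjusted p 0.935 to 0.965). For sex, Tlr9 and Ifnlr1 were higher in females, by 1.38 ± 0.16 and 0.70 ± 0.12, and Mavs was lower, at -0.92 ± 0.13 (limma, adjusted p = 0.0215, 0.0424 and 0.0281).

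A further list of 50 interferon-induced genes, 44 of them tested, had a median change of 0.0040 at 8 weeks and 0.0031 at 1 week, and 0 passed at either, with 9 of 44 at 8 weeks (23% of all probe sets) and 1 of 44 at 1 week (5.5%) at an unadjusted p under 0.05 (limma). Cxcl9, a T cell-attracting chemokine that interferon gamma induces, measured 6.03 and 6.60 at 8 weeks, 5.46 and 4.64 at 1 week, and 4.47 and the floor of 3.95 in controls. Its 8 week difference of 2.10 ± 0.36 is a lower bound because of the floor (limma, adjusted p = 0.0807). Its second probe set gave 0.39. Cxcl10, its relative, measured 6.72 and 7.28 at 8 weeks, 4.85 and 5.25 at 1 week, and 5.99 and 5.48 in controls. It was highest at 8 weeks, by 1.26 ± 0.29 over control, and lowest at 1 week, by -0.69 ± 0.29 (limma, adjusted p = 0.113 and 0.901). Slfn5, Eif2ak2, the kinase that stops translation on viral RNA, and Gbp8 were below control at 8 weeks, at -1.58 ± 0.36, -0.90 ± 0.20 and -0.81 ± 0.75 (limma, adjusted p = 0.111, 0.107 and 0.556). The remaining genes named at 1 week were Ifi27l2a at 0.61, Epsti1 at 0.37 and Cxcl11, a further chemokine, at -0.33 (limma, adjusted p 0.894 to 0.956). For sex, Adar, the RNA-editing enzyme, was higher in females by 1.63 ± 0.11, and Sp100, a nuclear body protein, and Ube2l6, the ISG15-conjugating enzyme, were lower, at -0.94 ± 0.14 and -0.59 ± 0.11 (limma, adjusted p = 0.0126, 0.0302 and 0.0455). Of these 44 genes 16 were higher in both sexes at 8 weeks, against 36.5% of all probe sets, and 15 were lower, against 29.0%.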

How the data were processed

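Gene expression was measured in 6 whole-lung pools. The values the authors deposited are array signal intensity on a linear scale, from 10 to 11513, and the method of summary and scaling is not given in the sources used here. Only the transgenic pools have an extraction protocol (frozen tissue, column kit), per the labels. The arrays were quantile normalized, values under the 20th percentile (15.5, log2 3.95) were raised to it as a floor, and log2 was taken. A value at the floor is an upper limit. Probe sets with a mean above the 40th percentile (log2 5.15) were tested, 27022 of 45037. Symbols came from the platform annotation, in which 34945 probe sets had 1 symbol, 932 several and 9160 none. All 37 measured genes matched a RefSeq name.

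limma 3.58.1 (R 4.3.3) fitted group and sex over all 6 arrays, leaving 2 residual degrees of freedom (prior 2.77), and a second fit held transgene, sex and their interaction. The Benjamini-Hochberg adjustment ran over all probe sets tested. The model was also run on simulated data, and the outcome of that run is not given here. Named genes were the 10, 6 and 6 with the largest changes of 1 sign in both sexes (8 weeks against control, 1 week against control, 8 weeks against 1 week). The 5 largest sex differences, the transcription factors, Isg15, Usp18 and any gene that passed were added, and from the other lists up to 5 genes a comparison. The GTPases and antigen-processing genes were described in full after their values were seen, as were Cmpk2, Xaf1, and second probe sets. The genes and lists were chosen with earlier results of these data known. Alternatives were the values as deposited, centred arrays, other floors, filters and moderation, 1 value per gene, no sex term and each array left out. Figures used Python 3.11.15 and matplotlib 3.10.9.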

Additional observations from a re-analysis of the deposited data

Results flagged for a closer look

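The probe set shared by Isg15 and Gm9706 lies outside the genes' own probe sets, and it was above the control pools at both durations, by 0.81 at 8 weeks and by 0.19 at 1 week (log2).

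Median changes of opposite sign in female and male pools were found for several groups of the genes. Each rests on 1 pool per sex and duration, and the difference between the sexes was not tested for any of these medians. For changes against control, the female and male control pools also differed in label, which cannot be told apart from sex. Over all 34 genes the median at 1 week against control was 0.30 in female pools and -0.15 in male pools, and at 8 weeks against 1 week it was -0.17 in females and 0.21 in males. The GTPases had medians of 0.50 in females and -0.48 in males at 1 week against control, 0.10 and -0.20 at 8 weeks against control, and -0.43 and 0.40 at 8 weeks against 1 week. The antigen-processing genes had 0.47 in females and -0.37 in males at 1 week against control, and -0.43 and 0.40 at 8 weeks against 1 week. For the 4 transcription factors the values were 0.16 in females and -0.18 in males at 1 week against control, 0.17 and -0.049 at 8 weeks against control, and -0.12 and 0.15 at 8 weeks against 1 week. The other induced proteins had 0.24 in females and -0.0073 in males at 1 week against control. These comparisons share pools: a high 1 week female pool enters both the 1 week change and, with reversed sign, the change of 8 weeks against 1 week.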

How the results depend on the processing

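The count of the genes' probe sets that passed at 8 weeks against control was 0. It was 1 with the values as deposited, 1 with log2(value + 16), 1 with a filter at the 60th percentile, each time the second Trim30a probe set, and 4 with trend and robust moderation, which added Oas1a (limma, adjusted p = 0.0348), Bst2 (0.0417) and Ifit1 (0.0421). At 8 weeks against 1 week trend and robust moderation gave 2, that Trim30a probe set and Rsad2. For female against male the 3 calls became 0 with least squares, 0 with no filter, and 0 to 1 without each array in turn. The 8 week median of 0.03 was 0.18 with centred arrays, -0.093 with deposited values, and -0.14 to 0.19 without each array, the extremes being without the female and the male control. The 1 week median of 0.07 was -0.14 without the 1 week female pool and 0.24 without the 1 week male pool.

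Signs turned only for changes that did not pass. With deposited values Irf9 was -0.0028 at 1 week, -0.045 at 8 weeks and -0.043 at 8 weeks against 1 week, and Stat2 -0.084 at 1 week. Centred arrays gave Irf1 0.059 at 8 weeks against 1 week and Usp18 0.051 at 8 weeks. One value per gene gave Dhx58 0.056 for sex and Trim30a -0.48 at 8 weeks. Without each array, Irf1 ranged from -0.30 to 0.048 at 1 week, -0.47 to 0.10 at 8 weeks and -0.35 to 0.23 at 8 weeks against 1 week. Irf9 ranged from -0.34 to 0.48, -0.31 to 0.51 and -0.30 to 0.36 in the same order, and from -0.12 to 0.38 for sex. Stat2 ranged from -0.26 to 0.29, -0.36 to 0.19 and -0.24 to 0.043. At 8 weeks Psmb8 ranged from -0.020 to 0.69 and Usp18 from -0.12 to 0.013. The cause was not tested for these changes with processing.

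Of the values of single genes under an alternative, 692 kept their direction and side of the threshold, 27 turned sign, 15 lost a call and 9 gained one. Pools were paired across groups by sex through the sex term, since the labels number no replicates, and leaving out the sex term gave 0 calls in each group comparison. The interaction could not be fitted without a control array. With 2 residual degrees of freedom a change had to be large against how the female and male difference varied over the groups. Values near the floor and changes under 2-fold thus stayed hard to separate from the spread.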
